A study of Mus musculus with 6 samples.

Results

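Replication-dependent histone genes encode the core histones H2a, H2b, H3 and H4 and the linker histone H1 that package newly copied DNA. Members were all protein-coding genes of the mouse mm9 annotation whose symbol begins with Hist1h, Hist2h, Hist3h or Hist4h. The annotation held 67 such genes, and all 67 were among the 18810 genes of the expression table. They were 6 H1, 19 H2a, 18 H2b, 11 H3 and 13 H4 genes. Of these, 55 lie on chromosome 13, 9 on chromosome 3, 2 on chromosome 11 and 1 on chromosome 6. RNA came from atrioventricular canal regions of embryonic day 15.5 mouse hearts, which hold the mitral, tricuspid and aortic valves at the stage when cushions remodel into leaflets. The 3 Scx-/- embryos were homozygous for a null allele of Scx, which encodes Scleraxis, a basic helix-loop-helix transcription factor of tendon and valve. The 3 Scx+/+ embryos were wild type littermates. The labels named no further allele, transgene, treatment or strain for either genotype.

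The 6 libraries held 46429972 to 68570997 counted reads. Values are RPKM, which are reads scaled to exon length and to library depth, so that levels of different genes can be compared per length. All 15 markers of valve and cushion mesenchyme were listed, although Prrx2 and Msx2 were at the table's fill-in value of 0.0949 RPKM in a library. Their sums were 512 to 704 RPKM in Scx-/- and 462 to 508 RPKM in Scx+/+. Postn weighed most in these sums, at means of 299 RPKM in Scx-/- and 209 RPKM in Scx+/+. By the fold changes given below, 8 of the 15 markers were higher in Scx-/-. The 11 cardiomyocyte markers summed to 16998 to 30190 RPKM, so the dissected pieces also held much heart muscle RNA. The Scx-/- libraries held Scx itself, over the whole gene, at 33.6, 18.6 and 82.9 RPKM, and the Scx+/+ libraries at 29.5, 58.3 and 25.97 RPKM, which overlap. The table gives no exon values, so Scx could not check the labels here. The authors reported that, before sequencing, expression of the first Scx exon was found strongly decreased in the Scx-/- samples. Scx+/+ replicate 2 stood apart, with 56.9% of its RPKM sum in its 10 most abundant genes against 30.7% to 43.9% in the other libraries.

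Replication-dependent histone genes are transcribed in S phase, when DNA is copied, and their mRNAs are the only metazoan mRNAs known to end without a poly(A) tail. A stem-loop shortly after the stop codon takes the place of the tail. Stem-loop binding protein (SLBP) and the U7 small nuclear ribonucleoprotein guide the cut behind this stem-loop, and SLBP then accompanies the mRNA to the ribosome. Replacement histones such as H3.3 and H2A.Z are made outside S phase from ordinary polyadenylated mRNAs. In the embryonic valve region, histone mRNA is therefore read as a mark of cells that copy their DNA. In bulk tissue, fewer cells in S phase and less histone mRNA per cell cannot be told apart.

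The stem-loop is shown because it is the sequence that sets these mRNAs apart. The 150 bases after each coding end in mm9 were searched on the coding strand for GG, any 3 bases, TT, any base, T, any base, A, any 3 bases and CC, with all 6 stem pairs intact. It was found in 63 of the 67 genes and in 5 of 22313 other protein-coding genes (0.0224%), among them H2afx. It was not found in this window for Hist1h2al, Hist1h2an, Hist2h2bb and Hist2h2be. All 50 stem-loops of the H1, H2a, H2b and H3 genes began with GGCTC, and none of the 13 H4 stem-loops did. The H4 form was GGCCC in 11 genes and GGTCC in Hist1h4b and Hist1h4j. In the sequences below, 5′ to 3′, capitals mark the stem-loop and lower case its flanks of 5 bases.
Hist1h1c (H1), chr13:23831376-23831401, plus strand: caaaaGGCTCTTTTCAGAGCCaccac
Hist2h2aa1 (H2a), chr3:96049950-96049975, plus strand: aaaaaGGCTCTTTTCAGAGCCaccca
Hist1h2bb (H2b), chr13:23839067-23839092, plus strand: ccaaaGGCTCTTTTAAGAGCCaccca
Hist1h3i (H3), chr13:21874784-21874809, minus strand: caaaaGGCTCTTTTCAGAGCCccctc
Hist1h4d (H4), chr13:23673814-23673839, plus strand: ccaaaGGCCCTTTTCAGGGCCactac
Hist1h4b (H4), chr13:23849230-23849255, plus strand: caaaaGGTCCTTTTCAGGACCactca
Hist2h4 (H4), chr3:96066857-96066882, minus strand: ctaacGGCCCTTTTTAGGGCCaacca

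Many histone genes share long stretches of coding sequence, which bears on every value below. The 50-base windows most widely shared in the H2a, H2b, H3 and H4 classes are shown, each from 1 gene that carries it. All 50 bases of each are coding.
H2a, at 19 genome sites, from Hist1h2ab, chr13:23843182-23843231, plus strand: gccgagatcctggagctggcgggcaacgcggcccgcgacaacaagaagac
H2b, at 15 genome sites, from Hist1h2ba, chr13:24025691-24025740, minus strand: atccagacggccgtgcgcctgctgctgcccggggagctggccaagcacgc
H3, at 12 genome sites, from Hist1h3a, chr13:23853981-23854030, minus strand: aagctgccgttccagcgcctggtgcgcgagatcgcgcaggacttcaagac
H4, at 11 genome sites, from Hist1h4a, chr13:23852785-23852834, minus strand: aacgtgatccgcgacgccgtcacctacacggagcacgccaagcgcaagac

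A read that lies within such a window cannot be placed in a single gene. The H1 genes were the most distinct, with a median of 97.7% of their 50-base windows found once in the genome, against 57.0% for H4, 49.7% for H2b, 42.7% for H3 and 33.0% for H2a. No window of Hist2h2aa1 and Hist2h2aa2, of Hist1h2ao and Hist1h2ap, or of Hist1h2bq and Hist1h2br was found once. Hist2h2aa1 and Hist2h2aa2 had 18893 to 28109 reads per library, and the counts of the 2 copies differed by 0 to 5 reads, far below the counting error of 137 to 168 reads (the square root of the count). Hist1h2ao and Hist1h2ap differed by 0 to 9 reads, and Hist1h2bq and Hist1h2br by 0 to 47 reads. Members with shared windows are therefore not independent measurements, and a sum over members can hold the same reads more than once. In 11 genes, at least 90% of windows were found once, among them Hist1h1a, Hist1h1b, Hist1h1c, Hist2h4 and Hist4h4.

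All 67 genes were listed with an RPKM in every library, and none was at the fill-in value. Where windows are shared, a listed level can hold reads of other genes, so it does not show that each gene was expressed. Mean levels ran from 1.02 RPKM for Hist1h1t to 633 RPKM for Hist2h2aa1, with 47 genes at 100 RPKM or more and 4 under 10 RPKM. Whole reads, within 0.1 read, could be recovered in all 6 libraries for 64 genes, with 24 to 28109 reads per gene and library. For Hist2h2ab, Hist2h2bb and Hist2h3c1 they could not, so only RPKM is given for these. In 14 genes the annotated exons are longer than 1000 bases, and their median level was 55.0 RPKM against 182 RPKM for the shorter models. How far these exons run past the stem-loop differs, from 108 bases in Hist1h3f to 3050 bases in Hist1h1d, and no stem-loop was found for Hist2h2bb and Hist2h2be. The part of model length in these levels was not tested.

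**Figure D1:**
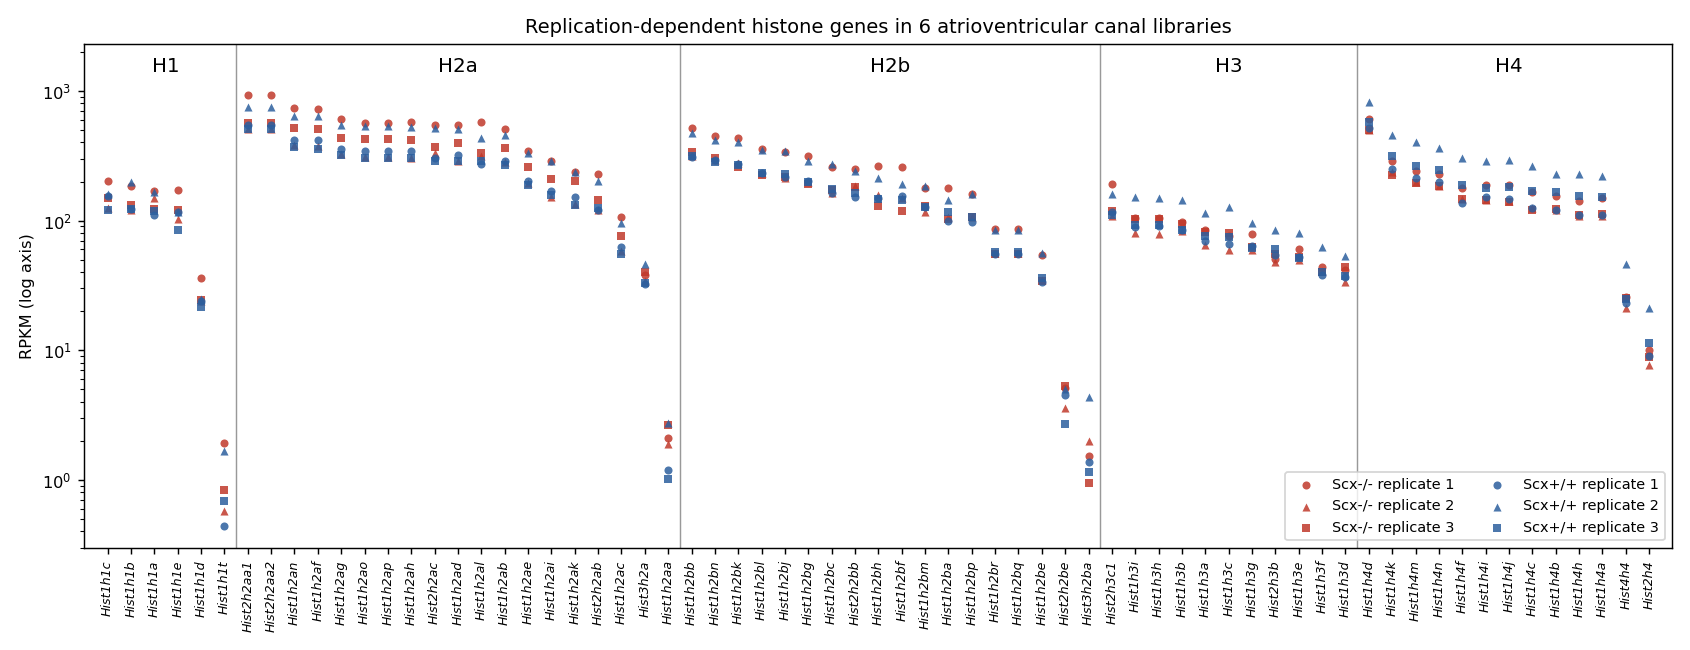
RPKM (log axis) of the 67 replication-dependent histone genes in each of the 6 libraries, grouped by class and ordered by mean level. Red marks Scx-/- and blue Scx+/+, with a circle, triangle and square for replicates 1, 2 and 3. Scx-/- replicate 1 or Scx+/+ replicate 2 was the highest library for 66 of the 67 genes.

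H2a genes, which pair with H2b at the surface of the nucleosome, had the highest levels. Hist2h2aa1 (ENSMUSG00000063954, chr3:96049461-96050038, 1 exon) was at 929, 508 and 561 RPKM in Scx-/- replicates 1 to 3 and at 545, 746 and 511 RPKM in Scx+/+ replicates 1 to 3. Its copy Hist2h2aa2 had nearly the same values. Hist1h2an, the next, was at 736, 382 and 522 RPKM in Scx-/- and 416, 641 and 368 RPKM in Scx+/+. In each of these, Scx-/- replicate 1 and Scx+/+ replicate 2 were the 2 highest libraries and the genotypes overlapped. The lowest H2a gene was Hist1h2aa, a gene known from testis, at 2.11, 1.88 and 2.66 RPKM in Scx-/- and 1.20, 2.76 and 1.01 RPKM in Scx+/+, from 27 to 62 reads.

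H2b genes were led by Hist1h2bb, at 516, 317 and 338 RPKM in Scx-/- replicates 1 to 3 and 308, 475 and 314 RPKM in Scx+/+ replicates 1 to 3. Hist1h2bn and Hist1h2bk followed with means of 339 and 319 RPKM. In all 3 genes the same pair of libraries, Scx-/- replicate 1 and Scx+/+ replicate 2, was highest. Hist3h2ba was the lowest at 1.54, 1.998 and 0.945 RPKM in Scx-/- and 1.37, 4.34 and 1.15 RPKM in Scx+/+, from 35 to 125 reads. Hist1h2ba, known as a testis form of H2b, was listed at 98.4 to 177 RPKM, but 61.8% of its windows were found once and its most widely shared window lies at 15 genome sites, so the table cannot separate its own mRNA from theirs.

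H1 genes encode the linker histone that binds DNA between nucleosomes. Hist1h1c (ENSMUSG00000036181, chr13:23830676-23832235) was at 203, 126 and 148 RPKM in Scx-/- replicates 1 to 3 and 155, 161 and 120.2 RPKM in Scx+/+ replicates 1 to 3. Hist1h1b and Hist1h1a, of which every 50-base window was found once, had means of 147 and 139 RPKM. Hist1h1b was at 185, 120.2 and 133 RPKM in Scx-/- and 122, 197 and 122 RPKM in Scx+/+. Hist1h1a was at 169.7, 149 and 122.6 RPKM in Scx-/- and 111, 165 and 119 RPKM in Scx+/+. Both genes, free of shared sequence, were highest in the same 2 libraries as the others, 1 of each genotype. The testis linker histone Hist1h1t was near the limit of the table, at 0.440 to 1.91 RPKM from 24 to 91 reads.

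H3 genes carry the tails on which many chromatin marks are set, and they were the lowest of the core classes, with a median mean level of 80.7 RPKM. Hist1h3i was at 104, 79.5 and 103 RPKM in Scx-/- replicates 1 to 3 and 89.2, 151 and 93.0 RPKM in Scx+/+ replicates 1 to 3. Hist1h3h had nearly the same values, and Hist1h3d was the lowest at 33.3 to 53.6 RPKM. Hist2h3c1, listed highest at 107.7 to 190.0 RPKM, has an exon model that overlaps Hist2h2aa1, and it was highest in Scx-/- replicate 1, whereas the other 10 H3 genes were highest in Scx+/+ replicate 2.

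H4 genes encode the most conserved core histone, and the H4 proteins of all these genes are known to be the same. Hist1h4d (ENSMUSG00000061482, chr13:23673467-23673859, 1 exon, plus strand) was the highest at 602, 499 and 497 RPKM in Scx-/- replicates 1 to 3 and 517, 814 and 571 RPKM in Scx+/+ replicates 1 to 3. Hist1h4k was at 286, 236 and 226 RPKM in Scx-/- and 250.1, 459 and 314 RPKM in Scx+/+. Hist1h4m, the next, ranged from 195 to 402 RPKM. Hist2h4, the lowest, was at 10.1, 7.75 and 8.87 RPKM in Scx-/- and 9.02, 21.3 and 11.4 RPKM in Scx+/+, from 835 to 1587 reads. Hist4h4, the lone member on chromosome 6 and 1 of 5 members of which every window was found once, was at 25.8, 21.3 and 25.4 RPKM in Scx-/- and 23.0, 45.9 and 24.9 RPKM in Scx+/+. Scx+/+ replicate 2 was the highest library in all 13 H4 genes, and the genotypes overlapped in each.

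The comparison of Scx-/- with Scx+/+ asks whether loss of Scx alters the level of histone mRNA while the valves remodel. It was tested on log2(RPKM + 0.1) with limma, a linear model with moderated variances, fitted on all 18810 genes. Fold changes refer to that scale, on which changes of low genes come out too small. None of the 67 histone genes was called by limma at an unadjusted p below 0.05, against 731 of all 18810 genes by limma (3.89%). Of all genes, 531 (2.82%) were called higher and 200 (1.06%) lower in Scx-/-. After Benjamini-Hochberg adjustment over all genes by limma no gene was called, and the smallest adjusted p was 0.173 over all genes and 0.967 among the histone genes. The 3 Scx-/- and 3 Scx+/+ libraries overlapped for each of the 67 genes, whereas they did not overlap for 9.5% of all genes. Hist2h4 came nearest to the threshold at -0.55 on the log2 scale (standard error 0.30, limma adjusted p = 0.967). With 3 libraries a genotype, the smallest two-sided p of an exact permutation test is 0.1.

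The log2 fold changes of the 67 genes ran from -0.55 to 0.52, with a median of 0.02 beside 0.10 over all genes. Setting the median log2 ratio of each library to 0 removes this offset by construction, and class values on that scale are given beside the others below. The standard errors were 0.19 to 0.57, with a median of 0.26. For Hist1h4d the log2 fold change was -0.23, with an interval from -0.79 to 0.33. For Hist2h2aa1 it was 0.12, with an interval from -0.55 to 0.78. For Hist1h1b, free of shared sequence, it was 0.00 with an interval from -0.57 to 0.57. A p that misses the threshold does not show that the levels were equal.

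**Figure D2:**
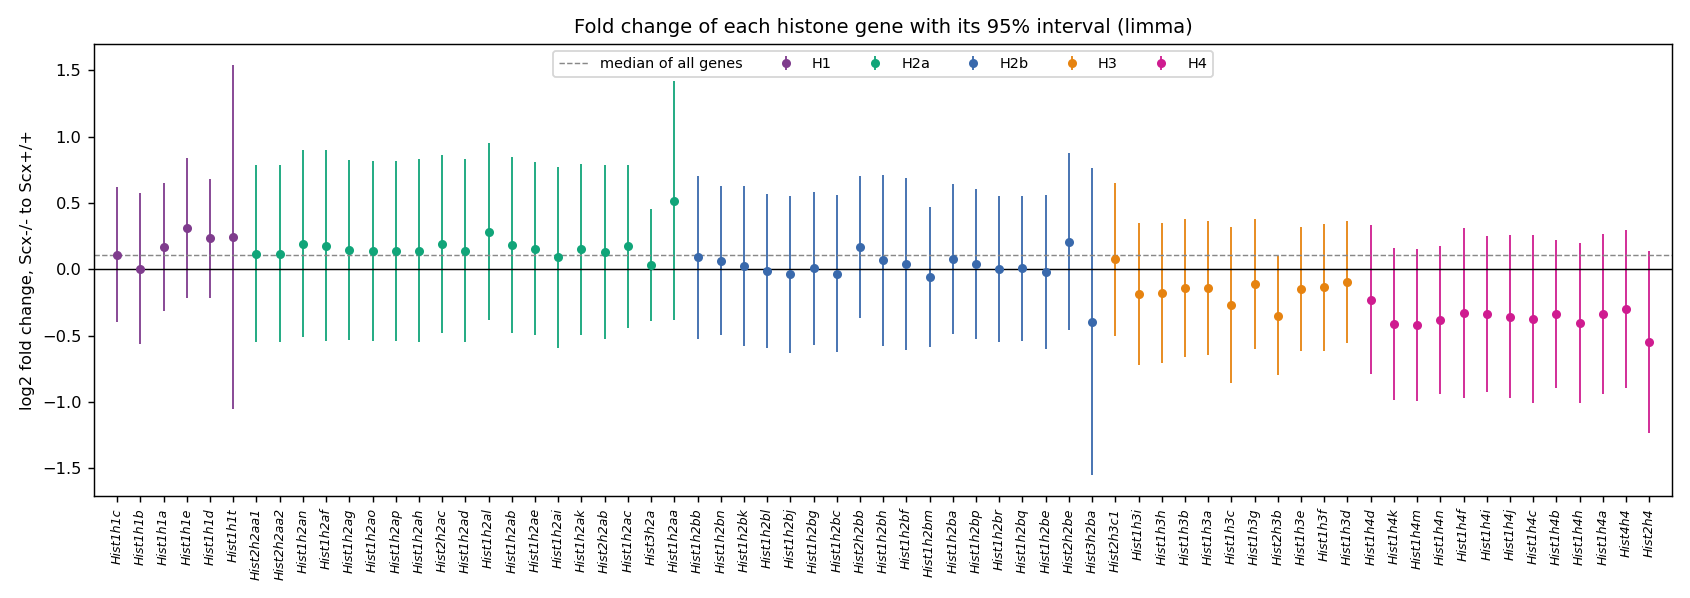
Log2 fold change of each histone gene, Scx-/- to Scx+/+, from limma on log2(RPKM + 0.1), with 95% intervals, in the same order as the levels. The dashed line is the median of all 18810 genes, 0.10. Every interval holds 0, the 13 H4 genes lie below 0 and the 19 H2a genes above 0.

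The classes leaned to different sides. All 13 H4 genes had a log2 fold change below 0, from -0.55 to -0.23 with a median of -0.36, and 10 of 11 H3 genes did, with a median of -0.14. All 19 H2a genes and all 6 H1 genes had one above 0, with medians of 0.15 and 0.20. Of the 18 H2b genes, 12 were above and 6 below 0, with a median of 0.02. Over all genes, 63.8% had a log2 fold change above 0. Genes of a class share reads, so these counts are not counts of independent genes. With the median log2 ratio set to 0 the H4 median was -0.47 with 0 of 13 genes above 0, and the H2a median was 0.04 with 17 of 19 above 0, but only 2 of 18 H2b genes and 5 of 6 H1 genes were then above 0. After quantile normalization 9 H4 genes and Hist2h3b were lower in Scx-/- at an unadjusted p below 0.05 by limma. Their log2 fold changes were -0.52 to -0.43, and all had a limma adjusted p of 0.993. These are 10 of the 67 histone genes, beside 705 of all 18810 genes called in that fit.

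The sums over each class show which libraries were high. The H4 sum was 2564, 2041 and 2032 RPKM in Scx-/- replicates 1 to 3 and 2112, 3927 and 2617 RPKM in Scx+/+ replicates 1 to 3, which is 2212 ± 304 (SD, n = 3) against 2885 ± 937 (SD, n = 3). The H3 sum was 823 ± 115 RPKM in Scx-/- against 921 ± 259.9 RPKM in Scx+/+ (SD, n = 3 each). In both classes Scx+/+ replicate 2 was far above the other 5 libraries. The H2a sum was 9072, 4933 and 6250.5 RPKM in Scx-/- and 5243, 8036 and 4799 RPKM in Scx+/+, or 6752 ± 2114 (SD, n = 3) against 6026 ± 1755 (SD, n = 3). The H2b sum was 3157 ± 887 RPKM in Scx-/- against 3065 ± 739 RPKM in Scx+/+ (SD, n = 3 each). The H1 sum was 614 ± 135 against 554 ± 100.3 RPKM (SD, n = 3 each). In these 3 classes Scx-/- replicate 1 was highest and Scx+/+ replicate 2 next. In every class the difference between the genotypes was smaller than the larger SD.

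**Figure D3:**
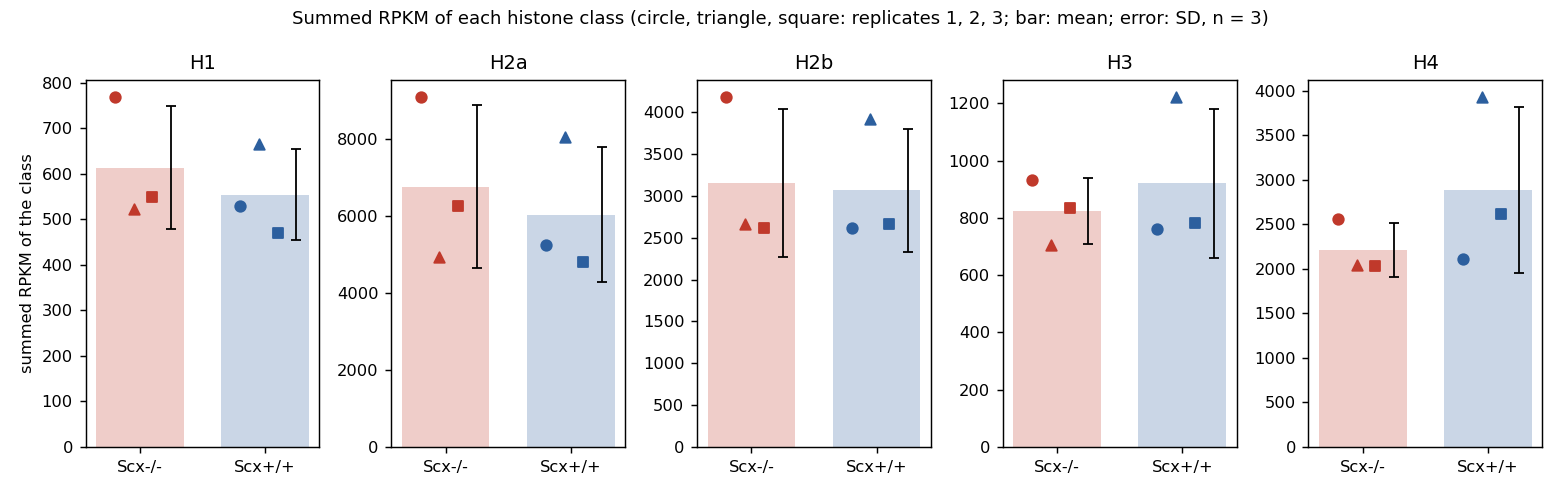
Summed RPKM of the H1, H2a, H2b, H3 and H4 genes in each library (circle, triangle and square: replicates 1, 2 and 3), with the mean (bar) and SD (error bar, n = 3) of each genotype. Each panel has its own axis from 0. The genotypes overlap in all 5 panels, and the highest point is Scx-/- replicate 1 for H1, H2a and H2b and Scx+/+ replicate 2 for H3 and H4.

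The largest differences therefore lay between libraries of the same genotype. All histone genes together summed to 17518, 10869.5 and 12288 RPKM in Scx-/- replicates 1 to 3 and to 11258, 17767 and 11331 RPKM in Scx+/+ replicates 1 to 3. The genotype means, 13558.5 ± 3502 and 13452 ± 3737 RPKM (SD, n = 3 each), were nearly the same. Scx-/- replicate 1 or Scx+/+ replicate 2 was the highest library for 66 of 67 histone genes (98.5%), against 45.4% of all genes, and the exception was Hist2h2be. Scx-/- replicate 1 led in 5 of 6 H1, 17 of 19 H2a and 12 of 18 H2b genes, and Scx+/+ replicate 2 in 10 of 11 H3 and 13 of 13 H4 genes. The highest library was 1.86 times the lowest in the median histone gene. Summed over the 11 genes with at least 90% distinct windows, the same 2 libraries were highest, at 927 and 911 RPKM against 621 to 692 RPKM in the other 4. Single genes of this set differed. Hist2h4 was highest in Scx+/+ replicates 2 and 3, and Hist2h2be in Scx-/- replicate 3.

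Leaving out these 2 libraries shows how far the class values rest on them. Without Scx+/+ replicate 2, the median log2 fold change was -0.09 for H4, with 1 of 13 genes above 0, and 0.08 for H3, with 10 of 11 above 0. Without Scx-/- replicate 1, it was -0.07 for H2a, with 3 of 19 genes above 0, and -0.02 for H1. With both left out, it was -0.23 for H4, -0.01 for H3, -0.01 for H2b, 0.17 for H2a and 0.13 for H1. Above 0 were then 0 of 13 H4, 4 of 11 H3, 6 of 18 H2b, 19 of 19 H2a and 5 of 6 H1 genes. Hist1h2aa was the only member called in that fit (log2 fold change 0.96, limma adjusted p = 0.645), and also without Scx+/+ replicate 2 alone (0.93, adjusted p = 0.598). Of all 18810 genes, 1338 and 1549 were called in these fits. Without Scx+/+ replicate 1, Hist1h4b, Hist1h4h, Hist1h4k and Hist2h4 were called lower, each with a limma adjusted p of 0.883. These are 4 of the 67 histone genes, beside 1003 of all 18810 genes called in that fit.

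The balance between the classes also differed between libraries. The ratio of the H4 sum to the H2a sum was 0.283, 0.414 and 0.325 in the 3 Scx-/- libraries, beside 0.403, 0.489 and 0.545 in the 3 Scx+/+ libraries, which overlap. The H3 to H2a ratio was 0.103, 0.143 and 0.133 in Scx-/- and 0.145, 0.152 and 0.163 in Scx+/+, so each Scx+/+ library lay above each Scx-/- library. The nearest values were 0.1427 and 0.1451. The H2b to H2a ratio was 0.461, 0.541 and 0.419 in Scx-/- and 0.499, 0.488 and 0.555 in Scx+/+, which overlap. A ratio within a library does not depend on its depth or scaling. These ratios were formed after the values had been seen, and they are given without a test. They hold shared reads, and the H3 sum includes the Hist2h3c1 model that overlaps an H2a gene.

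In mouse, many H2a and H2b genes lie head to head, with the start sites of both genes on either side of a short shared promoter. In 12 pairs the annotated starts faced each other across 167 to 305 bases. The spacer of Hist1h2ae and Hist1h2bg is shown because it holds the octamer motif ATTTGCAT, the site of the Oct1 factor known for H2b genes, here in capitals. Its sequence in mm9 is given on the plus strand, and Hist1h2ae is read to the left and Hist1h2bg to the right.
Hist1h2ae to Hist1h2bg, chr13:23663090-23663264, 175 bases: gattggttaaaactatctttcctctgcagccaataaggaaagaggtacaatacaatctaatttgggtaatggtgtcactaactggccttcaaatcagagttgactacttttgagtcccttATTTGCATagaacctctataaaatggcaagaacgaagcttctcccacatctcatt

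In the 300 bases before the annotated start, on both strands, ATTTGCAT was present in 8 of 18 H2b and 7 of 19 H2a genes, in no H1, H3 or H4 gene, and in 1.83% of all protein-coding genes. Head-to-head genes share this window, so a motif of a pair is counted for both. CCAAT was present in all 6 H1, 19 H2a and 18 H2b genes, in 10 of 11 H3 genes and in 4 of 13 H4 genes, against 39.0% of all genes. TATAAA was present in 4 of 6 H1, 9 of 19 H2a, 10 of 18 H2b, 5 of 11 H3 and 6 of 13 H4 genes, against 14.6% of all genes. A match describes the letters of the window and is not evidence of binding.

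Within such pairs, the ratio of H2a to H2b RPKM was similar across libraries but not the same. For Hist1h2ae and Hist1h2bg it was 1.11, 0.976 and 1.36 in the 3 Scx-/- libraries, beside 1.00, 1.14 and 0.946 in the 3 Scx+/+ libraries. The highest ratio of a pair was 1.43 times its lowest in the median pair and 1.404 to 3.00 times over the 12 pairs. Scx-/- replicate 3 had the highest ratio in 11 of 12 pairs, and Scx+/+ replicate 3 had the lowest in 7 and Scx-/- replicate 2 in 4. In all 12 pairs the genotypes overlapped. The genes of a class share reads, so the pairs are not independent of each other.

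**Figure D4:**
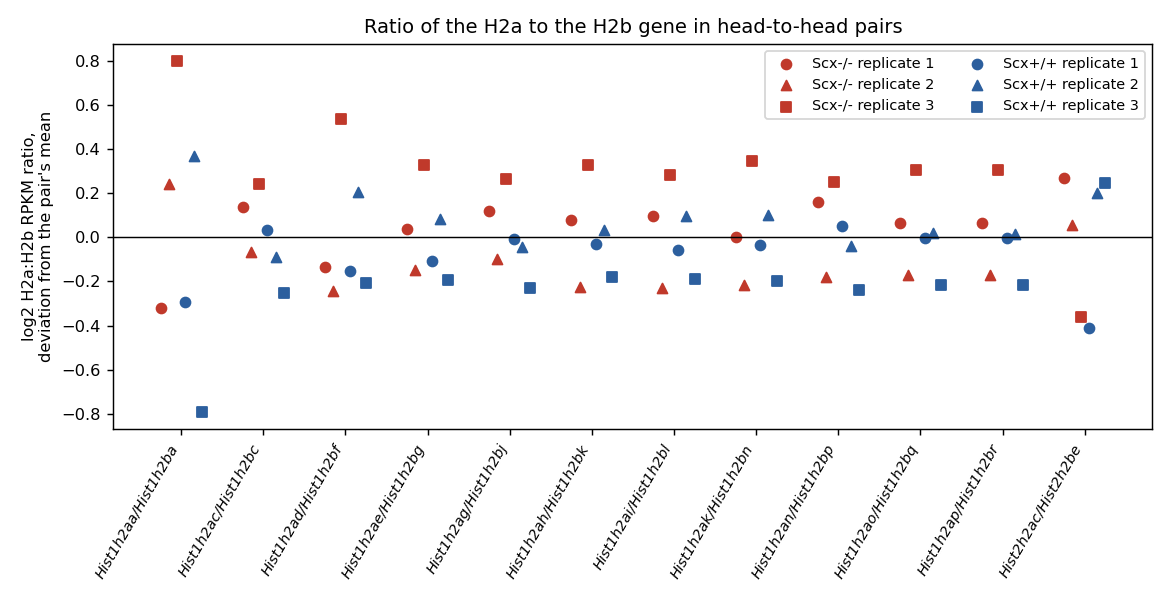
H2a to H2b RPKM ratio of the 12 head-to-head pairs in each library, as the log2 deviation from the mean of the pair over 6 libraries. Scx-/- replicate 3 (red square) is highest in 11 of 12 pairs, and the exception is Hist2h2ac with Hist2h2be. The genotypes overlap in every pair.

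The factors that make and process histone mRNA were examined next, in a list of 21 genes of which 20 were in the table. Of these, 1 was called higher in Scx-/- and none lower, which is close to the background, and the median log2 fold change was 0.20 beside 0.10 over all genes. Cpsf2, which encodes a subunit of the 3′ end cleavage complex, was at 22.7, 22.2 and 23.9 RPKM in Scx-/- replicates 1 to 3 and 18.2, 19.0 and 15.6 RPKM in Scx+/+ replicates 1 to 3, without overlap. Its log2 fold change was 0.38 (standard error 0.16, limma adjusted p = 0.967). Srrt and Ncbp1, a subunit of the nuclear cap-binding complex, had the other highest levels in the list, and Ncbp1 was at 21.1 to 21.3 RPKM in Scx-/- and 15.7 to 18.1 RPKM in Scx+/+, without overlap, but was not called (limma adjusted p = 0.967). Slbp itself, named after its values were seen, was at 11.99, 11.1 and 10.04 RPKM in Scx-/- and 8.68, 8.25 and 8.29 RPKM in Scx+/+. Its genotypes did not overlap, and it was not called at 0.39 on the log2 scale (standard error 0.17, limma adjusted p = 0.967). Eri1 did not overlap either. Over all genes, the genotypes did not overlap for 9.5%. In the list, 13 of 20 genes had a log2 fold change above 0, beside 63.8% of all genes.

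Histone chaperones carry new histones to DNA. Of 19, 1 was called higher and none lower, with a median log2 fold change of 0.12. Nasp, a chaperone of H1 and of H3 with H4, was at 43.5, 40.9 and 39.2 RPKM in Scx-/- replicates 1 to 3 and 33.8, 28.5 and 27.6 RPKM in Scx+/+ replicates 1 to 3, again without overlap. Its log2 fold change was 0.46 (standard error 0.16, limma adjusted p = 0.967). Over all genes, 9.5% were without overlap. Of the 19 chaperones, 14 had a log2 fold change above 0, beside 63.8% of all genes. The chaperones of highest level, Nap1l4, Rbbp7 and Ssrp1, had log2 fold changes of 0.29, 0.23 and 0.27 and were not called.

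None of the 10 replacement histone genes in the table was called by limma, and their median log2 fold change was 0.22. H3f3b and H3f3a, which encode H3.3, were at means of 82.2 and 68.6 RPKM, and H2afz, which encodes H2A.Z, at 70.2 RPKM. In Scx-/- and Scx+/+, H3f3a was at 75.4 ± 9.78 and 61.7 ± 6.17 RPKM (SD, n = 3 each). None of 23 DNA replication genes and none of 12 genes of G2 and mitosis was called by limma either, with median log2 fold changes of 0.18 and 0.22. Above 0 were 21 of the 23, 10 of the 12 and 7 of the 10 replacement histone genes, beside 63.8% of all genes. Rrm1, a subunit of ribonucleotide reductase, was at 112, 87.0 and 102 RPKM in Scx-/- replicates 1 to 3 and 91.1, 83.5 and 67.0 RPKM in Scx+/+ replicates 1 to 3. Pcna, the replication clamp, and the helicase subunit Mcm6 had means of 42.5 and 27.2 RPKM. Top2a, Ccna2 and Mki67, which mark cycling cells, had log2 fold changes of 0.21, 0.31 and -0.05. Over these 5 lists, 2 of 84 genes were called, Cpsf2 and Nasp. Without Scx+/+ replicate 2, the library that stood apart, Pcna, Prim1, Rfc4, Cdk1 and H2afz were called higher in Scx-/-. Their log2 fold changes were 0.47, 0.67, 0.78, 0.49 and 0.37, with a limma adjusted p of 0.598 each. That fit called 8 of the 84 list genes, beside 1549 of all 18810 genes. Without Scx-/- replicate 3, Mcm2, Ccnb1 and H3f3b were called higher, and without Scx+/+ replicate 1, Bub1 and Ccna2 were (limma adjusted p of 0.872 and 0.883). Those fits called 6 and 8 of the 84 list genes, beside 821 and 1003 of all 18810 genes. Of the genes named from these fits, Rfc4 was also called without both Scx-/- replicate 1 and Scx+/+ replicate 2.

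The high histone values of Scx-/- replicate 1 went with high values of the other cell cycle genes and, to a smaller extent, of genes in general. Those of Scx+/+ replicate 2 did not. As the median deviation of log2(RPKM + 0.1) from the mean of each gene, DNA replication genes were at 0.35 in Scx-/- replicate 1 and -0.02 in Scx+/+ replicate 2, and genes of G2 and mitosis at 0.38 and -0.23. Replacement histone genes were at 0.34 in Scx-/- replicate 1. The 10275 other protein-coding genes of more than 700 exon bases and a mean of at least 1 RPKM were at 0.16 there. Of all genes, 27.1% were highest in that library. The histone genes together were at 0.42 in both Scx-/- replicate 1 and Scx+/+ replicate 2, but the classes differed. H1, H2a and H2b genes were at 0.47, 0.53 and 0.42 in Scx-/- replicate 1 and at 0.18, 0.40 and 0.39 in Scx+/+ replicate 2. H3 and H4 genes were at 0.04 each in Scx-/- replicate 1 and at 0.53 and 0.72 in Scx+/+ replicate 2. The sum of the DNA replication genes was 472, 384 and 377 RPKM in Scx-/- replicates 1 to 3 and 381, 373 and 287 RPKM in Scx+/+ replicates 1 to 3. The ratio of the histone sum to it was 37.1, 28.3 and 32.6 in Scx-/- and 29.5, 47.6 and 39.5 in Scx+/+, so Scx+/+ replicate 2 held the highest ratio.

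Other groups moved with Scx+/+ replicate 2. The 440 other protein-coding genes with at most 700 exon bases and a mean of at least 1 RPKM had their highest median deviation there, at 0.28, against -0.09 for the 10275 longer ones, and 42.5% of the short genes were highest in that library. Histone mRNAs are short and lack a poly(A) tail. The 7SK RNA, which also lacks one, was at 72240 to 92251 RPKM in Scx-/- and at 68724, 326606 and 119661 RPKM in Scx+/+ replicates 1 to 3, and 137 snRNA genes had a median deviation of 1.13 in Scx+/+ replicate 2. The snRNA genes were at -0.63, -0.59 and 0.54 in Scx-/- replicates 1 to 3, and at -0.83 and 0.06 in Scx+/+ replicates 1 and 3. In Scx-/- replicate 3 the histone genes together were at -0.13. The cardiomyocyte markers were highest in Scx+/+ replicate 2 as well, at a median deviation of 0.27. How RNA was selected for the libraries is not given in the sources used here, and the part of RNA class, gene length and tissue content in the histone values was not tested.

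**Figure D5:**
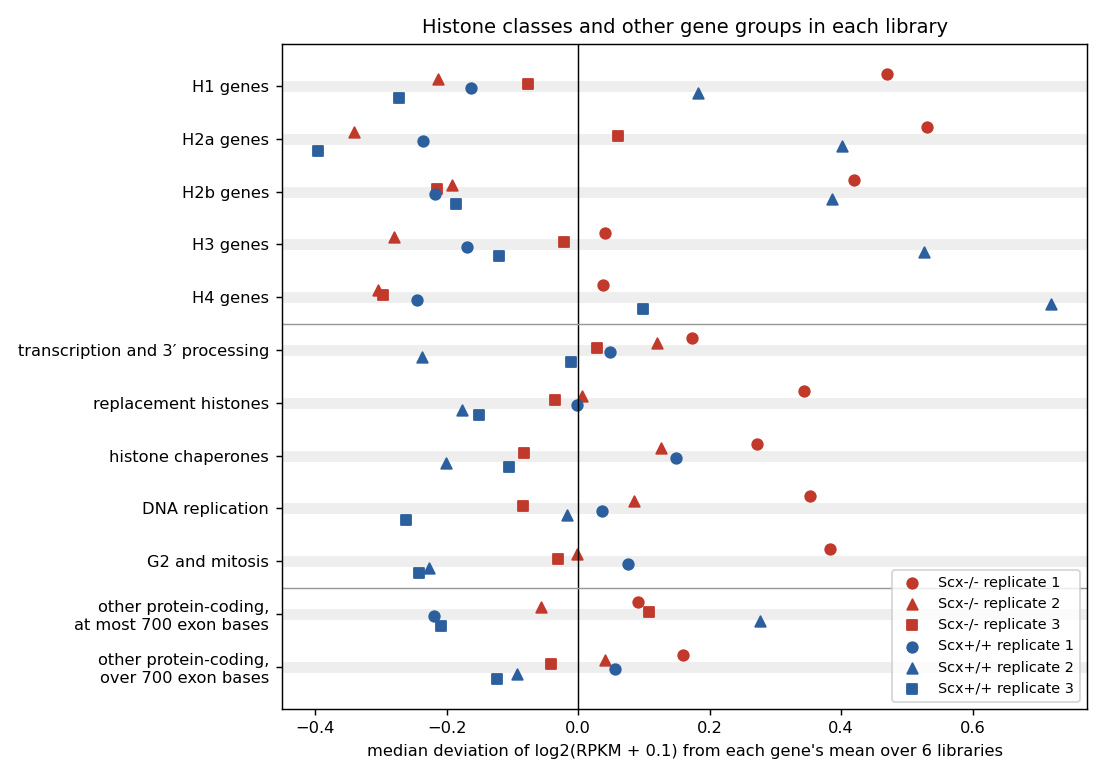
Median deviation of log2(RPKM + 0.1) from the mean of each gene over 6 libraries, for the histone classes, the 5 lists of related genes and other protein-coding genes of at most and over 700 exon bases. Scx-/- replicate 1 (red circle) is the highest library in H1, H2a and H2b and in the 5 lists, and Scx+/+ replicate 2 (blue triangle) is the highest in H3, H4 and the short genes.

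Markers of other cell types were read beside the histone values. Of 15 mesenchyme markers, 1 was called higher in Scx-/- (Lum, log2 fold change 0.85) and none lower, with a list median of 0.03 and 8 above 0. Of 8 macrophage markers, 1 was called higher (Cd68, 1.48), with a median of 0.16 and 5 above 0. Of 5 epicardial markers, 1 was called higher (Upk1b, 0.61), with a median of 0.32. Of 11 cardiomyocyte markers, 1 was called lower (Ryr2, -0.46), with a median of 0.08 and 6 above 0. None of 7 endothelial and 10 erythroid markers was called by limma, with medians of -0.14 and 0.21. Over all genes, 2.82% were called higher and 1.06% lower, and the median was 0.10. Erythroid markers, from cells that divide until they lose their nucleus, summed to 9514 to 14286 RPKM in Scx-/- and 7826 to 14027 RPKM in Scx+/+. Their median deviation was 0.30 in Scx-/- replicate 1 and -0.54 in Scx+/+ replicate 2, so the 2 libraries of highest histone level lay on opposite sides. Macrophage markers summed to 11.4 to 18.4 RPKM over all libraries, and Cd68 was at the fill-in value in Scx+/+ replicate 2. The part of cell content in the histone values was not tested.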

How the data were processed

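RNA of 3 Scx-/- and 3 Scx+/+ atrioventricular canal regions at embryonic day 15.5 was sequenced by the authors, aligned with TopHat 1.4.1 to mm9 and counted over Ensembl exons with easyRNASeq. The deposited table holds RPKM, which the authors normalized for exon length and library depth. By their methods, they kept genes with about 50 reads in a library and set low values to a common value, 0.0949 RPKM. How reads with several alignments were treated, the read length and the RNA selection are not given in the sources used here, and 50-base windows stand in for reads. No strand is named for the counting, so overlapping antisense genes cannot be separated, as for Hist1h4b, of which 60.9% of exon bases lie in another gene.

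RPKM was multiplied by mm9 exon length, and whole reads within 0.1 read gave depths of 46429972 to 68570997 reads. These served as descriptions, and no count test was run. Of 18810 identifiers, 18695 were in the annotation (GENCODE mm9). limma 3.58.1 in R 4.3.3 was run on log2(RPKM + 0.1) over all genes with an intensity trend and no covariate, and genes were called at an unadjusted p below 0.05, as the study did. p-values measure the spread between embryos.

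The members, lists and tests were chosen with earlier results of these data known. Named are the members called or not overlapping, the 3 highest and the lowest of each class, testis genes, the called genes of the lists of related genes, the 3 highest genes of each such list, and Scx. Genes named for an alternative, a sequence or an overlap, and Slbp, were chosen after their values were seen. Of the lists, Zfp473, H1f0 and Ahsp are not analysed here, nor is the testis gene Hist3h3. Alternatives were 2 other pseudocounts, a filter at 1 RPKM, no trend, one-way ANOVA, quantile normalization, median centring, a replicate block and leaving out libraries. Sums were also taken over members with at least 90% distinct windows, without the highest member, and as mean log2 values. Steps were tested on simulated data. Python 3.11.15, numpy 2.4.6, pandas 2.3.3, scipy 1.17.1, matplotlib 3.10.9 and pysam were used.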

Additional observations from a re-analysis of the deposited data

How the results depend on the processing

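The count of histone genes called was 0 under 7 alternatives on all libraries (pseudocounts of 0.01 and 1, the filter, no trend, one-way ANOVA, median centring and the replicate block), 10 after quantile normalization (9 H4 genes and Hist2h3b), 0 to 4 when 1 library was dropped (4 without Scx+/+ replicate 1, 1 without Scx+/+ replicate 2), and 1 without both Scx-/- replicate 1 and Scx+/+ replicate 2, an alternative chosen after seeing the data. No member passed after adjustment under any of these. The count over all genes, 731, was 705 after quantile normalization. It ranged from 539 to 1549 with a library left out, with 1003 without Scx+/+ replicate 1 and 1549 without Scx+/+ replicate 2. Without both libraries it was 1338.

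The 2 genes called in the lists of related genes became 4 with a pseudocount of 1, beside 714 of all 18810 genes. With only genes of a mean of at least 1 RPKM they became 4, beside 568 of 13827 genes. The count was 0 without the trend and 7 by one-way ANOVA (Slbp, Ncbp1 and Eri1 among them), beside 645 and 865 of all genes. It was 0 after quantile normalization and 1 with the median log2 ratio set to 0, beside 705 and 646 of all genes. With a library left out it ranged from 1 to 8. It was 1 without Scx-/- replicate 1, 6 without Scx-/- replicate 3, 8 without Scx+/+ replicate 1 and 8 without Scx+/+ replicate 2. Those fits called 578, 821, 1003 and 1549 of all genes. Nasp passed the threshold in the fit with the replicate block and Cpsf2 did not, which leaves 1 list gene called with the block, beside 573 of all genes and 0 histone genes. Deviations of same-numbered libraries from their genotype mean correlated at 0.09, -0.22 and -0.19. With 3 libraries a genotype, such correlations cannot show whether replicate numbers pair embryos, and the labels name no pairing.

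The log2 ratios of summed RPKM moved by less than the spread between libraries under every alternative. With a library left out they ranged from -0.22 to 0.26 for all histone genes and from -0.56 to -0.10 for H4. No H3 gene has 90% distinct windows, so H3 has no value for that subset. The cause of these changes was not tested.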

Other observations

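Histone loci annotated as pseudogenes were outside the rule but in the table. Hist1h2aj was at 713, 373 and 485 RPKM in Scx-/- replicates 1 to 3 and 383, 600.5 and 351 RPKM in Scx+/+ replicates 1 to 3, which is within the range of the H2a genes, and Hist2h3c2 was at 24.0 to 46.8 RPKM. Hist3h2bb-ps was at 1.397 to 2.79 RPKM. None was called, each with a limma adjusted p of 0.967. Hist1h2aj was highest in Scx-/- replicate 1, as H2a genes were, and Hist2h3c2 in Scx+/+ replicate 2, as H3 genes were. Reads shared with the protein-coding genes cannot be told apart from their own.

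H2afx, the variant gene that holds the histone stem-loop outside the 67 members, was at 61.9, 35.7 and 45.7 RPKM in Scx-/- replicates 1 to 3 and 43.7, 62.6 and 38.3 RPKM in Scx+/+ replicates 1 to 3. Its 2 highest libraries were the 2 that were highest for the histone genes.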
